A study of Mus musculus with 4 samples.

Results

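The genes examined here were chosen by name as components of the meiotic chromosome: Sycp1, Sycp2, Sycp3, Syce1, Syce2, Hormad1, Smc1b, Stag3, Rec8 and Tex11. All 10 were found among the 22138 genes of the table. They were measured by RNA-seq in mouse TT2 embryonic stem cells (strain C57BL/6xCBA, female), kept without feeders in serum and LIF, a cytokine that prevents differentiation. They received either control siRNA (n = 2 libraries) or siRNA against Hnrnpk (n = 2 libraries), each at 100 nM and again at 50 nM after 24 hours, and RNA was taken about 72 hours after the second dose. The targeted gene product, hnRNP K, binds RNA and DNA, and the series title links it to silencing by the histone H3 lysine 9 methyltransferase SETDB1. Both groups are the same single cell line, and no genotype differs between them. Whether the 2 libraries of a group came from separate cultures is not stated in the labels, so the spread between libraries may be technical. The p-values rest on that spread, with the variance of each gene largely shared across genes.

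During meiosis, replicated chromosomes are organised along a protein axis. The axis is built from cohesin complexes that carry meiosis-specific subunits (SMC1B, STAG3, REC8) together with HORMAD1, SYCP2 and SYCP3. Homologous chromosomes are then zipped together by the synaptonemal complex, in which SYCP1 forms the transverse filaments and SYCE1 and SYCE2 belong to the central element between the axes. TEX11, encoded on the X chromosome, promotes crossover formation in spermatocytes. Outside the germline most of these genes are kept silent or low, in several cases with DNA methylation or repressive complexes at their promoters.

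The values were RPKM, reads scaled to the length of the gene model and the size of the library, so that levels of different genes can be compared per length. Embryonic stem cell markers were high in all libraries: the 10 markers examined summed to 4023 to 4166 RPKM after control siRNA and 4807 to 5124 RPKM after Hnrnpk siRNA. Of these, Dppa5a (log2 change 0.83, from a mean of 1298 to 2308 RPKM) and Nanog (0.82) were called higher by the limma fit, and Sox2 (-0.53), Utf1 (-0.29) and Tdgf1 (-0.24) lower; the Utf1 call was lost with GC trends removed (limma adjusted p up to 0.369 over 14 alternatives) and that of Tdgf1 without Hnrnpk siRNA replicate 1 (up to 0.0659). The 8 fibroblast markers summed to 8.171 to 9.656 and 4.919 to 5.28 RPKM, with Thy1 (mean 6.05 to 2.25 RPKM) and Col1a1 (2.57 to 1.79 RPKM) called lower, Pdgfra (0.170 to 0.898 RPKM, log2 change 1.06) called higher and the other 5 too low to test. Their part in the changes of the 10 genes was not tested. Prm1, a marker of late spermatids, was at 0 in every library. Hnrnpk itself stood at 236 and 226 RPKM after control siRNA and at 68.0 and 70.5 RPKM after Hnrnpk siRNA. Relative sequencing depth, read from the steps between low values, was 0.982 in control replicate 2 and 0.891 and 0.882 in the Hnrnpk siRNA libraries, with control replicate 1 set to 1. The unit behind a step may be a read or a read pair.

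The 10 genes moved in both directions after Hnrnpk siRNA. The transverse filament gene Sycp1, the central element gene Syce1 and the axis genes Sycp3 and Hormad1 rose. All 3 meiotic cohesin genes, Smc1b, Stag3 and Rec8, fell, as did Syce2 and Tex11. With limma on log2(RPKM + 0.5), 9 of the 10 genes had a mean of at least 0.5 RPKM and were tested; 4 were called higher and 5 lower at a Benjamini-Hochberg adjusted p under 0.05. Calls were common in this comparison: 32.2% of the 12486 genes tested were called higher and 35.0% lower, so a call by itself says little about these genes. The median log2 change of the 9 tested members was -0.43, against -0.015 over all genes tested. With 4 rises and 5 falls, that median is the smallest fall, the value of Rec8. It leaves out Sycp2, which rose (0.50), so it gives no shift of the set as a whole. Sycp2 was too low to be tested. In a culture measured in bulk, fewer cells expressing a gene and less RNA per cell cannot be told apart.

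**Figure D1:**
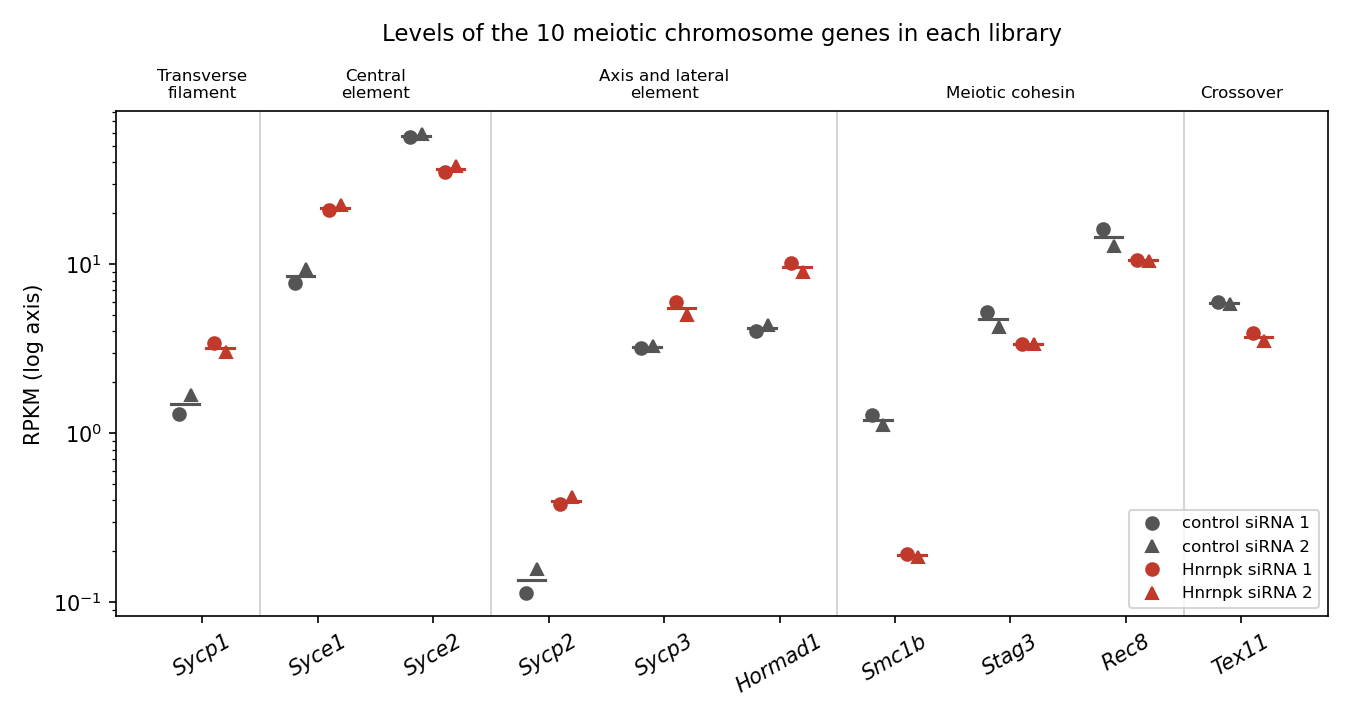
RPKM of each gene (log axis) in the 4 libraries, grouped by the role of the protein; grey is control siRNA, red is Hnrnpk siRNA, circles are replicate 1, triangles replicate 2, and horizontal lines are group means (n = 2). The Hnrnpk siRNA libraries both lie above the control libraries for Sycp1, Syce1, Sycp2, Sycp3 and Hormad1 and both below them for Syce2, Smc1b, Stag3, Rec8 and Tex11.

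In all 10 genes the 2 groups of libraries did not overlap, 5 with both Hnrnpk siRNA libraries above and 5 with both below. Across all genes tested this held for 84.7%. The plot of levels by library shows how far apart the genes stood to begin with. Syce2 was the highest at 57.8 ± 1.37 RPKM (SD, n = 2) after control siRNA, above 89.0% of the genes tested. Sycp2 was the lowest at 0.135 ± 0.0317 RPKM (SD, n = 2). The order of control means was Syce2, Rec8, Syce1, Tex11, Stag3, Hormad1, Sycp3, Sycp1, Smc1b and Sycp2. Neighbours in that order whose control libraries overlapped were Stag3 and Hormad1. After Hnrnpk siRNA the order became Syce2, Syce1, Rec8, Hormad1, Sycp3, Tex11, Stag3, Sycp1, Sycp2 and Smc1b, and only the Stag3 and Sycp1 libraries overlapped between neighbours in that order.

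The stretches just upstream of the genes are shown for 4 members, 3 that rose and 1 that fell, because they carry short motifs bound by known regulators of germline genes. The windows of Syce1 and Sycp2, which also rose, met the limit on exonic bases but held neither motif and are not shown. Each is the 250 bases before the RefSeq start in GRCm38.p6, written 5′ to 3′ on the gene's strand. Windows were found for 9 of the 10 genes, Tex11 being the exception; Hormad1 and Syce2 have 2 starts each, of which the first is shown. Windows with more than 30 bases annotated as exonic in GENCODE M21 were searched but are not shown. Capitals mark the 2 motifs searched, on both strands: CACGTG, the E-box read by MAX and MGA, and GCGGGA, a core of E2F sites, which E2F6 reads. No match of one overlapped a match of the other. The windows are chr3:102936101-102936350 (minus strand) for Sycp1, chr10:88459337-88459586 (plus) for Sycp3, chr3:95559427-95559676 (plus) for Hormad1, and chr8:84871861-84872110 (plus) for Syce2, the member that fell.
Sycp1: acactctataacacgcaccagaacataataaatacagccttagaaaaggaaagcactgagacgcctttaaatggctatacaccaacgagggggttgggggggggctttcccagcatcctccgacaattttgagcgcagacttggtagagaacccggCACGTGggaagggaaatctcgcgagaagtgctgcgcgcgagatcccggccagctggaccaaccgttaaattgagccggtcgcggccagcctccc
Sycp3: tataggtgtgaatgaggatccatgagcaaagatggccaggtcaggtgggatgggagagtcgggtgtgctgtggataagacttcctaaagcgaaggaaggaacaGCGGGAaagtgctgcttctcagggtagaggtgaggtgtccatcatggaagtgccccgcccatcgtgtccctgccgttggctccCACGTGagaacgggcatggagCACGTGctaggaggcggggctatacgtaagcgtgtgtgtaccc
Hormad1: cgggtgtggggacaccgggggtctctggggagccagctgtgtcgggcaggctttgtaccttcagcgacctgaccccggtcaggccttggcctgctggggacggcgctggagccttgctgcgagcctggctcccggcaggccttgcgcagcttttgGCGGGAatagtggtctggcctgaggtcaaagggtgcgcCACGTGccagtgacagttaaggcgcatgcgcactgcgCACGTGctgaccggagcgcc
Syce2: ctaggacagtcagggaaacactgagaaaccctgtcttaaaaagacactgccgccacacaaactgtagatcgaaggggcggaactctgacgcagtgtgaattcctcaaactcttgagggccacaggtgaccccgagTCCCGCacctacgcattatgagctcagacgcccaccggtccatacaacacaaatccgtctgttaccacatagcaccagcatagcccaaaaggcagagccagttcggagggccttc

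The E-box CACGTG stood in 6.02% of all 32851 windows of this length. It was present in 6 of the 11 member windows, of which Hormad1 and Syce2 gave 2 each. By gene, it was present in 5 of the 9 members with a window. Those were Sycp1, Sycp3 and Hormad1, which rose, and Stag3 and Syce2, which fell; Sycp3 and Hormad1 each had 2 copies, and Syce2 had its match in the window of its second start. GCGGGA stood in 16.9% of all windows and in 7 of the 11 member windows. Those windows belong to 5 members: Sycp3 and Hormad1, which rose, and Smc1b, Rec8 and Syce2, which fell. Each motif thus stood in windows of genes of both directions; the Stag3 window lies within the first exon of a GENCODE M21 transcript of the gene. CpG dinucleotides, which can be methylated, were at 0.307 to 1.21 times the number that base composition gives, lowest at Sycp2 and highest at Smc1b, against a median of 0.374 over all windows. Both motifs contain a CpG, and the windows behind the 6.02% and 16.9% were not matched to the members for CpG content. The shares are therefore not a like-for-like comparison. A match describes the sequence only, and no binding or methylation was measured.

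Sycp1 (GRCm38 chromosome 3, 102818499 to 102936100, minus strand) encodes the protein that spans the gap between paired chromosomes. It had 1.30 and 1.68 RPKM after control siRNA and 3.42 and 3.004 RPKM after Hnrnpk siRNA. The groups were apart, the lower knockdown library being well above the higher control. The group means were 1.49 ± 0.270 and 3.21 ± 0.293 RPKM (SD, n = 2 each). Their ratio was 2.15 and the log2 change 0.90 (SE 0.112, with limma's adjusted p = 7.99e-05), and 5.05% of the genes tested rose further.

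Syce1 (chromosome 7, 140777229 to 140787852, minus strand), a central element gene, rose most among the 9 tested on this scale. Its values were 7.73 and 9.36 RPKM after control siRNA and 20.9 and 22.4 RPKM after Hnrnpk siRNA. The lower Hnrnpk siRNA library was far above the higher control library. Its log2 change was 1.30 (SE 0.0919, with limma's adjusted p = 2.49e-06; ratio of means 2.53), and 2.29% of the genes tested rose further.

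Syce2 (chromosome 8, 84872111 to 84888221, plus strand), whose product works in the same central element, went the other way. It stood at 56.8 and 58.8 RPKM after control siRNA and at 35.0 and 38.3 RPKM after Hnrnpk siRNA. Both knockdown libraries were lower than both controls. This was a log2 change of -0.65 (SE 0.0670, with limma's adjusted p = 2.36e-05). The ratio of Syce2 to Syce1 RPKM was therefore 7.35 and 6.28 in the controls and 1.68 and 1.71 after Hnrnpk siRNA. Syce2 remained the higher of the pair in every library. Gcdh, a glutaryl-CoA dehydrogenase gene on the opposite strand that overlaps the end of Syce2 with no shared exonic base, had 22.2 ± 2.70 and 22.2 ± 0.274 RPKM (SD, n = 2 each; log2 change 0.0029, limma adjusted p = 0.978).

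Among the axis genes, Hormad1 (chromosome 3, 95559677 to 95587671, plus strand), which encodes a HORMA-domain protein needed for break formation and its surveillance, changed most among the tested ones on the log2(RPKM + 0.5) scale. It had 4.05 and 4.38 RPKM after control siRNA and 10.2 and 8.94 RPKM after Hnrnpk siRNA. The groups were clearly apart. Its log2 change was 1.09 (SE 0.0880, with limma's adjusted p = 5.32e-06; ratio 2.27). A processed pseudogene, Gm15529, shares 921 bases of the Hormad1 transcript at up to 97.7% identity and was not analysed here. How reads matching both were counted is not stated in the labels, which leaves the level of Hormad1 uncertain to that extent.

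Sycp3 (chromosome 10, 88459569 to 88473236, plus strand), the axis component most used to stain meiotic chromosomes, had 3.19 and 3.27 RPKM after control siRNA and 5.95 and 5.04 RPKM after Hnrnpk siRNA. Both knockdown values were higher, and they differed more from each other than the controls did. The log2 change was 0.68 (SE 0.0936, with limma's adjusted p = 0.000156). Sycp3 lies within Chpt1, a choline phosphotransferase gene on the opposite strand, and 660 of its 1264 exonic bases are also exonic in Chpt1. Whether the counting used strand is not stated in the labels, so reads in the shared bases cannot be told apart. Chpt1 was called higher as well, from a mean of 1.49 ± 0.0889 to 2.01 ± 0.0037 RPKM (SD, n = 2 each, with a log2 change of 0.34, limma adjusted p = 0.00769), a smaller change from a lower level.

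Sycp2 (chromosome 2, 178345293 to 178407685, minus strand) encodes the partner of SYCP3 in the axis. It had 0.113 and 0.158 RPKM after control siRNA and 0.380 and 0.417 RPKM after Hnrnpk siRNA. These values correspond to about 83 and 115 units in the controls and 251 and 272 after Hnrnpk siRNA. The knockdown libraries were both higher, with a ratio of means of 2.95. Its mean over the 4 libraries was under the 0.5 RPKM required, so it got no call. Its log2 change was 0.50 with 0.5 RPKM added, and 1.09 with 0.1 RPKM added.

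**Figure D2:**
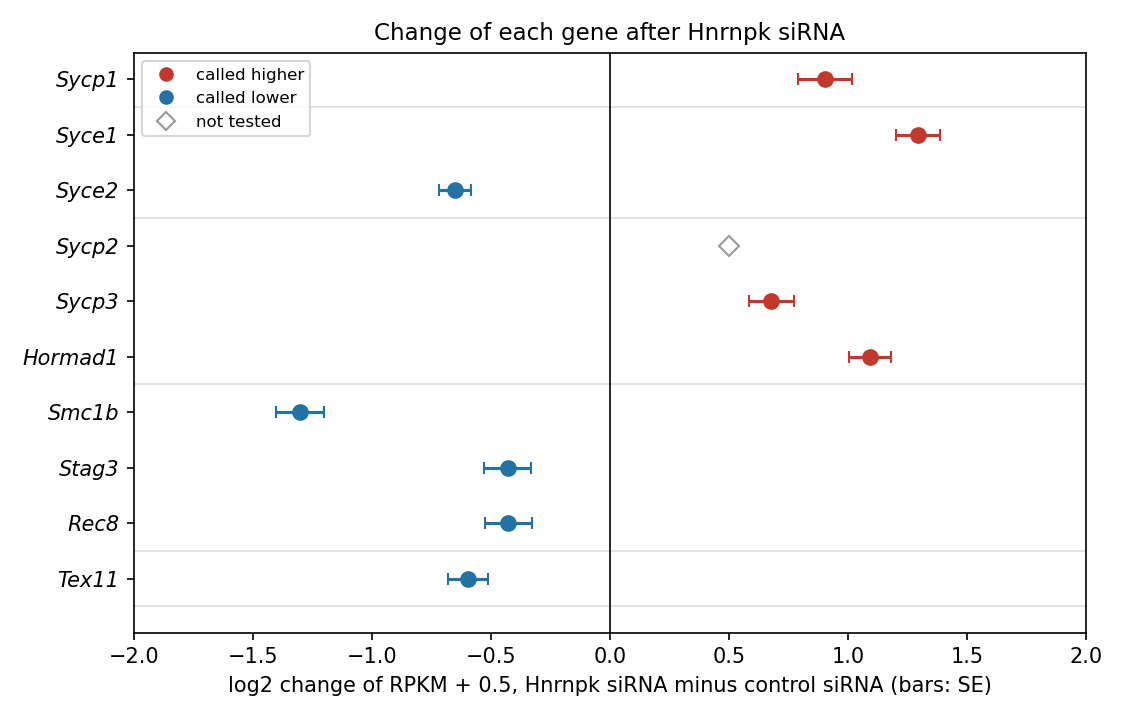
Log2 change of RPKM + 0.5 (Hnrnpk siRNA minus control siRNA) for each gene, with bars of 1 SE from limma; red is called higher, blue called lower, and the open diamond is Sycp2, which was not tested. Syce1 has the largest positive change (1.30) and Smc1b the largest negative one (-1.30), and the 3 cohesin genes all lie left of 0.

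Smc1b (chromosome 15, 85064689 to 85131964, minus strand), the meiotic form of the cohesin ATPase SMC1, fell most. It had 1.29 and 1.11 RPKM after control siRNA and 0.192 and 0.186 RPKM after Hnrnpk siRNA. That is about 646 and 550 units against 86 and 82, so the values after Hnrnpk siRNA rest on few units. The mean control level was 6.35 times the mean Hnrnpk siRNA level, and only 9 of the 12486 genes tested fell further by that ratio. On the log2 scale the added 0.5 RPKM compressed the change to -1.30 (SE 0.101, with limma's adjusted p = 4.16e-06). It was -2.17 with 0.1 RPKM added and -0.89 with 1 RPKM added. Ribc2 starts 114 bases from Smc1b on the opposite strand and had 0.0780 and 0.1605 RPKM after control siRNA and 0.139 and 0.222 RPKM after Hnrnpk siRNA. The Ribc2 libraries overlapped, and this neighbour was too low to be tested. The same held for Gm10923, a processed pseudogene within Smc1b on the opposite strand with no shared exonic base, at means of 0.163 and 0.161 RPKM.

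Stag3 (chromosome 5, 138280240 to 138312393, plus strand), the meiotic STAG subunit, had 5.21 and 4.23 RPKM after control siRNA and 3.36 RPKM in both Hnrnpk siRNA libraries. Control replicate 1 stood 1.23 times above control replicate 2, and both were above the knockdown. The log2 change was -0.43 (SE 0.101, with limma's adjusted p = 0.00394). Gpc2, a glypican gene that starts 235 bases away on the opposite strand, did not pass the test, with 0.863 ± 0.0792 and 0.859 ± 0.0826 RPKM (SD, n = 2 each; limma adjusted p = 0.970).

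Rec8 (chromosome 14, 55618037 to 55625395, plus strand) encodes the kleisin that closes the meiotic cohesin ring. It had 16.1 and 12.8 RPKM after control siRNA and 10.6 and 10.5 RPKM after Hnrnpk siRNA. As for Stag3, control replicate 1 was the highest library, 1.25 times control replicate 2. The log2 change was -0.43 (SE 0.0987, with limma's adjusted p = 0.00372). Without control replicate 1 the log2 change was -0.27 for Rec8 and -0.30 for Stag3, each still called (limma adjusted p = 0.00876 and 0.00775). Both calls were lost when no filter on low genes was applied (adjusted p = 0.119 for Rec8 and 0.0957 for Stag3).

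Tex11 (chromosome X, 100838648 to 101059667, minus strand), the crossover factor, had 5.97 and 5.81 RPKM after control siRNA and 3.93 and 3.53 RPKM after Hnrnpk siRNA. Both groups were tight and apart. This gave a log2 change of -0.60 (SE 0.0839, with limma's adjusted p = 0.000175), and 14.0% of the genes tested fell further.

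Transcript base composition differed among the members. GC content of the longest transcript was 34.6% in Sycp1, 36.4% in Sycp2, 34.3% in Sycp3 and 35.8% in Hormad1, against a median of 50.7% over the genes tested. Syce1, which also rose, had 49.5%. The genes that fell ranged from 39.8% in Tex11 to 56.7% in Rec8. With each library's trend on GC content removed, the log2 changes of Sycp1, Sycp3 and Hormad1 were 0.72, 0.50 and 0.93, and all 9 tested members kept their direction and call.

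Cohesin in dividing cells uses SMC1A, SMC3, RAD21 and STAG1 or STAG2, so the meiotic subunits were set beside those counterparts. The mitotic subunits were the more abundant forms in every library. Smc1a went down from a mean of 35.5 ± 0.906 to 25.6 ± 1.71 RPKM (SD, n = 2 each, with a log2 change of -0.47, limma adjusted p = 0.000240). Rad21 rose from a mean of 155 ± 4.27 to 212 ± 4.75 RPKM (SD, n = 2 each, with a log2 change of 0.45, limma adjusted p = 0.000197). The remaining subunits did not pass the test. Smc3 had a log2 change of -0.11 (limma adjusted p = 0.180), Stag1 of 0.17 (adjusted p = 0.0570) and Stag2 of 0.045 (adjusted p = 0.605).

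**Figure D3:**
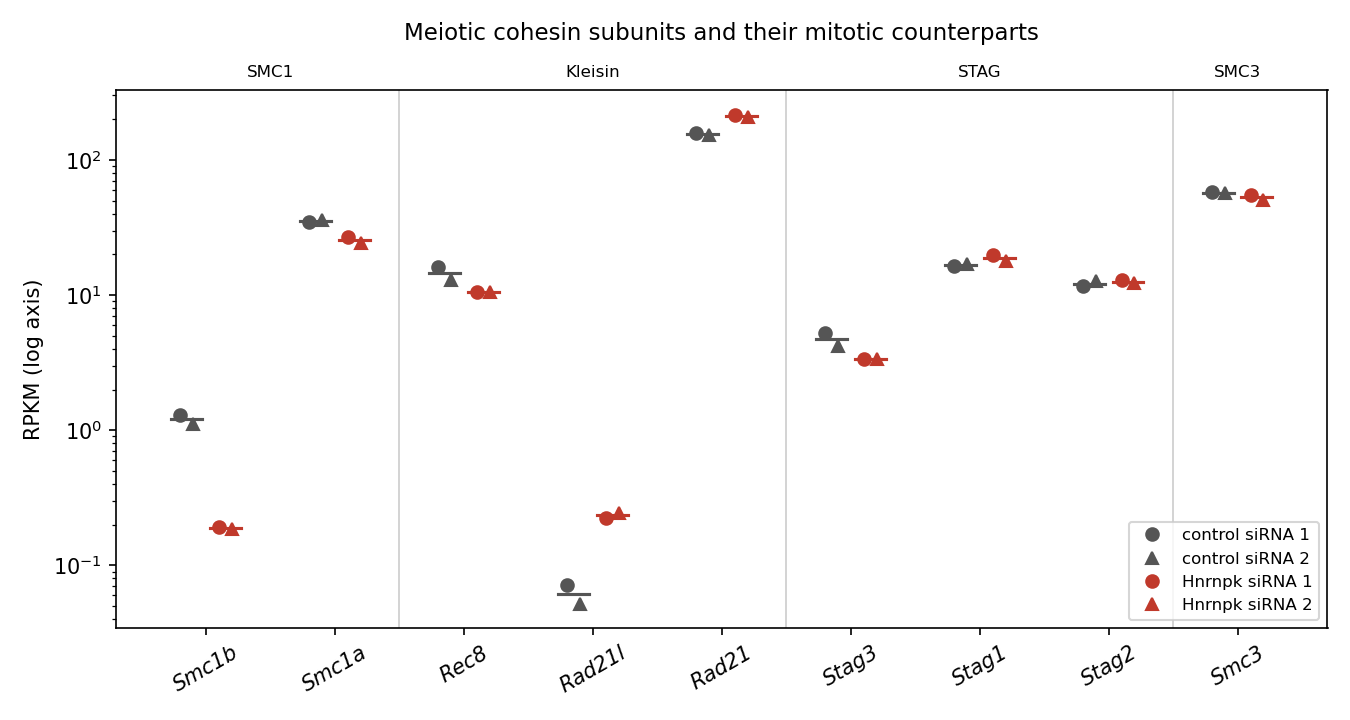
RPKM (log axis) of meiotic cohesin subunits beside their mitotic counterparts in each library; grey is control siRNA, red is Hnrnpk siRNA, circles are replicate 1, triangles replicate 2 and lines are group means (n = 2). Smc1b, Rec8 and Stag3 are lower after Hnrnpk siRNA, while Rad21l and Rad21 are higher.

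The share of each meiotic form among its counterparts therefore shrank for the 3 members. Smc1b made up 3.55% and 2.99% of the summed Smc1a and Smc1b RPKM in the controls and 0.711% and 0.758% after Hnrnpk siRNA. Rec8 made up 9.21% and 7.76% of the 3 kleisins Rec8, Rad21 and Rad21l in the controls and 4.70% and 4.79% after Hnrnpk siRNA. Stag3 made up 15.6% and 12.5% of the 3 STAG genes in the controls and 9.29% and 10.02% after Hnrnpk siRNA. The libraries of the groups did not overlap for any of these 3 shares. The shares reuse the levels given above, so this separation adds no separate support. Levels of the groups did not overlap for 84.7% of all genes tested. Rad21l, a second meiotic kleisin, differed from Rec8: it had 0.0711 and 0.0519 RPKM after control siRNA and 0.224 and 0.245 RPKM after Hnrnpk siRNA, too low to be tested. Over the 17 genes of mitotic cohesin and its regulators, all tested, 5 were called higher and 6 lower, with a median log2 change of -0.042. These counts are near the shares over all genes tested, 32.2% higher and 35.0% lower. The largest rises were Sgol1 (0.60), the protector of centromeric cohesion, Esco1 (0.47), a cohesin acetyltransferase, and Rad21. The largest falls were Pds5a (-0.67), Pds5b (-0.53) and Esco2 (-0.52); PDS5 proteins regulate how cohesin is held on chromatin, and ESCO2 acetylates it.

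The other genes of the meiotic programme were mixed as well. Of 51 listed genes 44 were in the table and 29 were tested. Among the tested ones 12 were called higher and 13 lower, against 32.2% and 35.0% of all genes tested. Their median log2 change was -0.024. Among the remaining synaptonemal and cohesin genes, Tex12, a central element gene, had 0.249 and 0.368 RPKM in the controls and 1.69 and 1.51 RPKM after Hnrnpk siRNA (log2 change 1.38, limma adjusted p = 4.62e-06). Syce3, another central element gene, rose from a mean of 1.56 ± 0.1295 to 2.77 ± 0.400 RPKM (SD, n = 2 each, with a log2 change of 0.66, limma adjusted p = 0.000444). Hormad2, the paralog of Hormad1, went down from a mean of 1.63 ± 0.0639 to 0.796 ± 0.0391 RPKM (SD, n = 2 each, with a log2 change of -0.71, limma adjusted p = 0.000102). The gene listed as 4930447C04Rik, now called Six6os1, also a central element gene, had a log2 change of -0.26 (limma adjusted p = 0.0384); its call was lost under 5 of 14 alternatives, among them without control replicate 2 and without either Hnrnpk siRNA replicate (adjusted p up to 0.188). The central element thus held Syce1, Syce3 and Tex12 that rose, and Syce2 and 4930447C04Rik that fell.

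**Figure D4:**
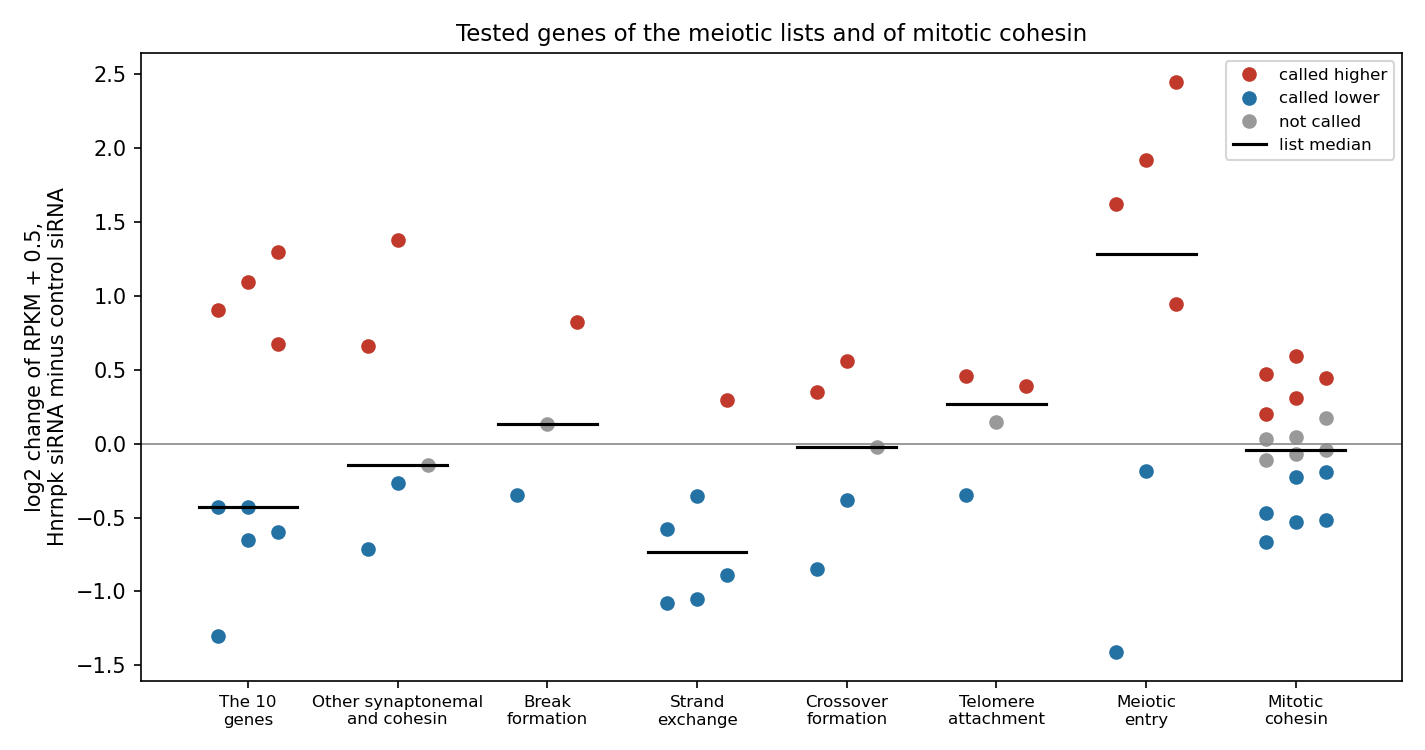
Log2 change of RPKM + 0.5 (Hnrnpk siRNA minus control siRNA) of every tested gene in the 10-gene set, in 6 further meiotic lists and in the list of mitotic cohesin and its regulators; red is called higher, blue called lower, grey not called, and black lines are list medians. Tested strand exchange genes lie mostly below 0 (median -0.73). Genes of the meiotic entry list, which also holds wider germline genes such as Taf7l and Mael, lie mostly above it (median 1.28).

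Strand exchange genes that were tested were mostly lower, 5 of 6 called lower and 1 higher, against 35.0% and 32.2% of all genes tested. Of the 2 too low to be tested, Spata22 rose from a mean of 0.141 to 0.588 RPKM, with both Hnrnpk siRNA libraries above the controls. The other, Rad51ap2, fell from a mean of 0.0499 to 0.0179 RPKM. Hsf2bp, which helps load recombinases in meiosis, fell from 16.6 ± 1.05 to 7.57 ± 0.0539 RPKM (SD, n = 2 each), a log2 change of -1.08, and Dmc1, the meiotic recombinase, from a mean of 6.93 ± 0.0811 to 3.08 ± 0.1002 RPKM (SD, n = 2 each, with a log2 change of -1.05). The gene listed as 4930432K21Rik, now called Brme1, a partner of Hsf2bp, followed with -0.89. Trip13, the ATPase that removes HORMAD proteins from chromosomes, was the member called higher (0.29, limma adjusted p = 0.0127), a call lost under 3 of 14 alternatives, among them without control replicate 1 and without Hnrnpk siRNA replicate 2 (adjusted p up to 0.173).

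In the crossover list 2 of 5 tested members were called higher and 2 lower, against 32.2% and 35.0% of all genes tested. Prr19 (0.56) and Ccnb1ip1 (0.35) rose, while Cntd1 (-0.85) and Mlh3 (-0.38) fell. For break formation, 3 genes were tested: Zcwpw1, a histone methylation reader, rose (0.82) and Mei4 fell (-0.35); the Mei4 call was lost under 3 of 14 alternatives, among them without Hnrnpk siRNA replicate 1 (limma adjusted p up to 0.165). In the list of telomere attachment, 2310014L17Rik (0.46) and Sun1 (0.39) rose and Ccdc155 (now Kash5, -0.35) fell, of 4 tested. The entry 2310014L17Rik was taken for Majin by its symbol alone. That match was not checked and may be wrong, and the list counts and medians include it. The Ccdc155 call was lost under 4 of 13 alternatives, among them without Hnrnpk siRNA replicate 2 and with GC trends removed (limma adjusted p up to 0.154).

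Meiotic entry and its regulators held the largest changes of these lists. Of 6 tested members 4 were called higher and 2 lower, against 32.2% and 35.0% of all genes tested. Taf7l (2.45), Dazl (1.92) and Mael (1.62), germline genes with roles in transcription, translation and transposon control, rose. Ythdc2, an RNA-binding protein required for meiotic progression, went down from a mean of 7.56 ± 0.566 to 2.53 ± 0.223 RPKM (SD, n = 2 each, with a log2 change of -1.41, limma adjusted p = 1.51e-06). Stra8, which drives entry into meiosis, was called lower with a small change, from a mean of 11.9 ± 0.497 to 10.4 ± 0.469 RPKM (SD, n = 2 each, with a log2 change of -0.18, limma adjusted p = 0.0481); this call was lost under 7 of 14 alternatives, among them without control replicate 1 and without either Hnrnpk siRNA replicate (adjusted p up to 0.279 over all 14). Spermatocyte markers outside the axis were near the floor of the data. Their 8 values summed to 2.327 to 2.673 RPKM after control siRNA and to 1.471 to 1.774 RPKM after Hnrnpk siRNA, with 1 of the 8, Prm1, at 0 throughout and only Ccna1 tested. Of 7 germ cell markers in the table, all tested, Ddx4 (1.28), Nanos3 (1.03) and Prdm14 (0.39) were called higher and Dppa3 (-0.82) lower. Prdm1 (-0.024), Kit (-0.14) and Dnd1 (-0.20) were not called. Among all genes tested, 32.2% were called higher and 35.0% lower. The 7 markers summed to 127.1 to 136.5 RPKM after control siRNA and 117 to 119.3 RPKM after Hnrnpk siRNA. Dppa3 had the largest fall in that sum, from a mean of 72.4 to 40.7 RPKM. Ddx4 rose from a mean of 9.78 to 24.4 RPKM, Nanos3 from 4.72 to 10.1 and Prdm14 from 6.27 to 8.39, so the sum does not describe each marker. The part of such cells in the changes of the 10 genes was not tested.

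PRC1.6, a Polycomb complex, holds MGA, MAX and E2F6 at promoters of germline genes, and E2F6 is known to repress Stag3 and Smc1b in somatic cells. Of the 10 genes of this complex and its partners, all tested, 2 were called higher and 2 lower, against 32.2% and 35.0% of all genes tested. E2f6 rose from a mean of 11.8 ± 0.751 to 20.0 ± 0.277 RPKM (SD, n = 2 each, with a log2 change of 0.74, limma adjusted p = 1.62e-05), and Rnf2, the E3 ligase subunit of the complex, had a log2 change of 0.31. Tfdp1, a dimerisation partner of E2F proteins, went down from a mean of 149 ± 8.20 to 81.2 ± 2.66 RPKM (SD, n = 2 each, with a log2 change of -0.88, limma adjusted p = 3.89e-06). Mga had a log2 change of -0.19 (limma adjusted p = 0.0479, lost under 6 of 14 alternatives, among them without either control replicate and without Hnrnpk siRNA replicate 2, and up to 0.368) and Max one of 0.039 (adjusted p = 0.582). Their part in the changes of the 10 genes was not tested.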

How the data were processed

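The authors deposited RPKM values per gene for each library. BWA, SAMtools and mouse build mm9 are named per the submitters' processing notes, with no role or version. No source used here gives the counting tool, annotation, strand setting or treatment of reads with several matches. Ribosomal RNA depletion and poly(A) selection are both named in the labels.

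Values were analysed as log2(RPKM + 0.5), a scale that understates changes of low genes. Filtering on a mean of 0.5 RPKM or more left 12486 of 22138 genes, which were fitted in limma 3.58.1 (R 4.3.3), using a mean-variance trend, moderated two-sided tests and Benjamini-Hochberg adjustment over all genes tested; called means an adjusted p under 0.05. The variance of a gene had 2 residual and 7.47 prior degrees of freedom, so it drew mostly on the other genes tested. The fit was tested on simulated data. An exact permutation test of 1 gene cannot go below 0.333 with groups of 2. Low values were not whole multiples of 1 unit (27.2% to 29.1% within 0.02), so no count model was used. Units per gene are estimates from GENCODE M21 exonic lengths.

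Gene positions are from GENCODE M21 (GRCm38), not the authors' build. Transcripts were compared by BLAST 2.17.0 (at least 95% identity over at least 100 bases), and promoter windows come from RefSeq. All 10 members were named whatever their values, and so were the core mitotic cohesin subunits. The same held for genes of the table overlapping a member or starting within 1000 bases. Of other lists, up to 3 called rises and 3 called falls were named, with a few further genes not called or not tested. Listed genes without a match were not analysed here, and 1 listed gene is not reported here; it was taken out of the lists with its values known, though not for them, so list counts and medians are without it. The members and lists were chosen with earlier results of these data known. Alternatives were other added values, filters and scalings, no variance trend, a replicate block, removal of GC trends, and leaving out each library.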

Additional observations from a re-analysis of the deposited data

How the results depend on the processing

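All members kept their direction under each of the 14 alternatives that gave them a value. The 4 members called higher stayed 4 except with no filter, where Sycp2 made them 5 (limma adjusted p = 0.0192). With no filter, 3 members were called lower, since Stag3 and Rec8 lost their calls; the cause was not tested. Of other genes named, Syce3, Ccnb1ip1, Cntd1, Prdm14, Sox2 and Dppa5a lost theirs only with no filter (limma adjusted p = 0.0519, 0.0719, 0.0505, 0.0646, 0.0529 and 0.0933), while 4930447C04Rik, Mei4, Trip13, Ccdc155, Stra8, Mga, Utf1 and Tdgf1 lost theirs with no filter and under other alternatives. With a mean of at least 1 RPKM required, 4 were called lower, because Smc1b was no longer tested. Leaving out each library in turn left 4 higher and 5 lower; an arm then has 1 library, which is assumed to vary like the others. The log2 change of Sycp2, which had no test, ranged from 0.301 to 1.09. The largest range among tested members was that of Smc1b, from -2.17 to -0.89.

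Deviations of the 2 replicate 1 libraries from their group means were barely correlated across the genes tested (correlation 0.0267). Whether libraries of the same number were handled together is not stated in the labels, and this correlation cannot settle it. With a replicate block, 4 members were called higher and 5 lower, as without it, also with GC trends removed. With the block, the mitotic cohesin list had 6 called higher and 6 lower, and with GC trends also removed it had 4 and 6. Over all 12486 genes tested, the block alone gave 4162 called higher and 4460 lower. Depth limits Sycp2 after control siRNA and Smc1b after Hnrnpk siRNA.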
